A study of Mus musculus with 6 samples.

Results

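The genes described here are 32 genes of glycolysis and hexose transport, taken from a named list that runs from the glucose and fructose transporters through each step to lactate export, with a few enzymes that run the path in reverse. They were followed in mouse J1 embryonic stem cells, an established line, on 6 Agilent gene expression arrays labelled with Cy3 alone, which read total RNA harvested 96 hours after the cells received an siRNA. Each of 3 siRNAs, non-targeting (NT), anti-Thoc2 and anti-Thoc5, was read on 2 arrays, and all cells were grown in ESGRO medium and transfected in M10 medium. Thoc2 and Thoc5 are subunits of the THO complex, which travels with new mRNA and helps to prepare it for export from the nucleus. The study's title places the arrays in work on THO, export of pluripotency mRNA and stem cell self-renewal. Of the 32 genes, 31 had a probe under their own symbol or an older one, out of 27669 genes with a probe, and Gapdh is treated apart. All 31 were well above background on all 6 arrays and were among the 19336 genes tested.

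Glycolysis splits a hexose into pyruvate and yields ATP and NADH. Glucose enters through facilitative transporters, is trapped by hexokinase, is committed at phosphofructokinase, and leaves as lactate when lactate dehydrogenase and the monocarboxylate transporters take it out. Embryonic stem cells are known for a high flux through this path, and many of its genes are known targets of the hypoxia-inducible factor Hif1a and of Myc.

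A level is the log2 processed signal of a gene's brightest probe minus the 75th percentile of that array's signals, so 0 is the 75th percentile and levels are compared between arrays for 1 probe, never between genes. A difference is between group means of these levels, errors are the standard error (SE) of a limma fit to all 6 arrays, and a percentage of NT is the same difference off the log scale. The labels do not say whether arrays of a group came from separate cultures, so the p-values measure only the spread between these arrays. The siRNA targets went the way of the labels without passing the test. Thoc2 levels were 1.33 and 1.43 on the NT arrays against 0.70 and 0.33 after its own knockdown, and Thoc5 levels were 1.31 and 1.57 on the NT arrays against 0.34 and 0.00 after its own. The differences were -0.86 ± 0.28 for Thoc2 and -1.27 ± 0.27 for Thoc5, with no overlap between the arrays. Spots well above background made up 68.3% to 79.7% of the spots on 5 arrays and 56.7% on Thoc5 replicate 1, and Thoc2 replicate 1 had 880 outlier spots against 63 to 155 on the others. All 10 embryonic stem cell markers examined, Pou5f1, Nanog and Sox2 among them, were well above background on all 6 arrays.

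Most glycolysis and hexose transport genes lay lower after either knockdown, and the differences were spread along the path from uptake to lactate export. Taking both knockdowns together against NT, 26 of 31 genes had a difference below 0, as did 50.7% of all genes tested. The median difference of the 31 was -0.47 (quartiles -0.70 and -0.09), while that of all tested genes was -0.01. In 18 of 31 genes (58.1%) all 4 knockdown arrays lay below both NT arrays, an arrangement found in 16.3% of all tested genes. All 4 arrays lay above both NT arrays in 3 of the 31 and in 14.2% of all. The genes with all 4 arrays below were Slc2a1, Slc2a3, Slc2a5, Hk1, Gpi1, Pfkp, Aldoc, Tpi1, Pgk1, Pgam1, Eno2, Ldha, Ldhb, Pdk1, Slc16a1, Slc16a3, Pck2 and G6pc3, and those with all 4 above were Pfkm, Fbp2 and Pfkfb4. These counts describe a list chosen with results of these data known and carry no test of their own.

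No single gene passed the adjusted test. With limma and Benjamini-Hochberg adjustment over all 19336 genes, 0% of genes were called in each of the 4 comparisons, and the smallest adjusted p among the 31 was 0.209 for Thoc2 siRNA, 0.101 for Thoc5 siRNA and 0.105 for the mean of both. At an unadjusted p under 0.05, limma placed 12 of 31 genes lower and 2 higher for the mean of both knockdowns, where 10.4% and 8.81% of all genes were. A fit of the same values with an intensity trend and robust variances called 10 of 31 lower for the mean of both, where it called 1.94% of all genes lower. Those 10 were Slc2a3, Slc2a5, Aldoc, Tpi1, Pgk1, Ldha, Ldhb, Pdk1, Slc16a3 and Pck2, with adjusted p of 0.019 to 0.0416 in that limma fit. Requiring every array of every group to be well above background left 15205 genes, of which limma called 1.5% lower, with Slc2a5, Aldoc, Slc16a3 and Pck2 as the 4 called among the 31 (adjusted p 0.0365 to 0.0431).

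**Figure D1:**
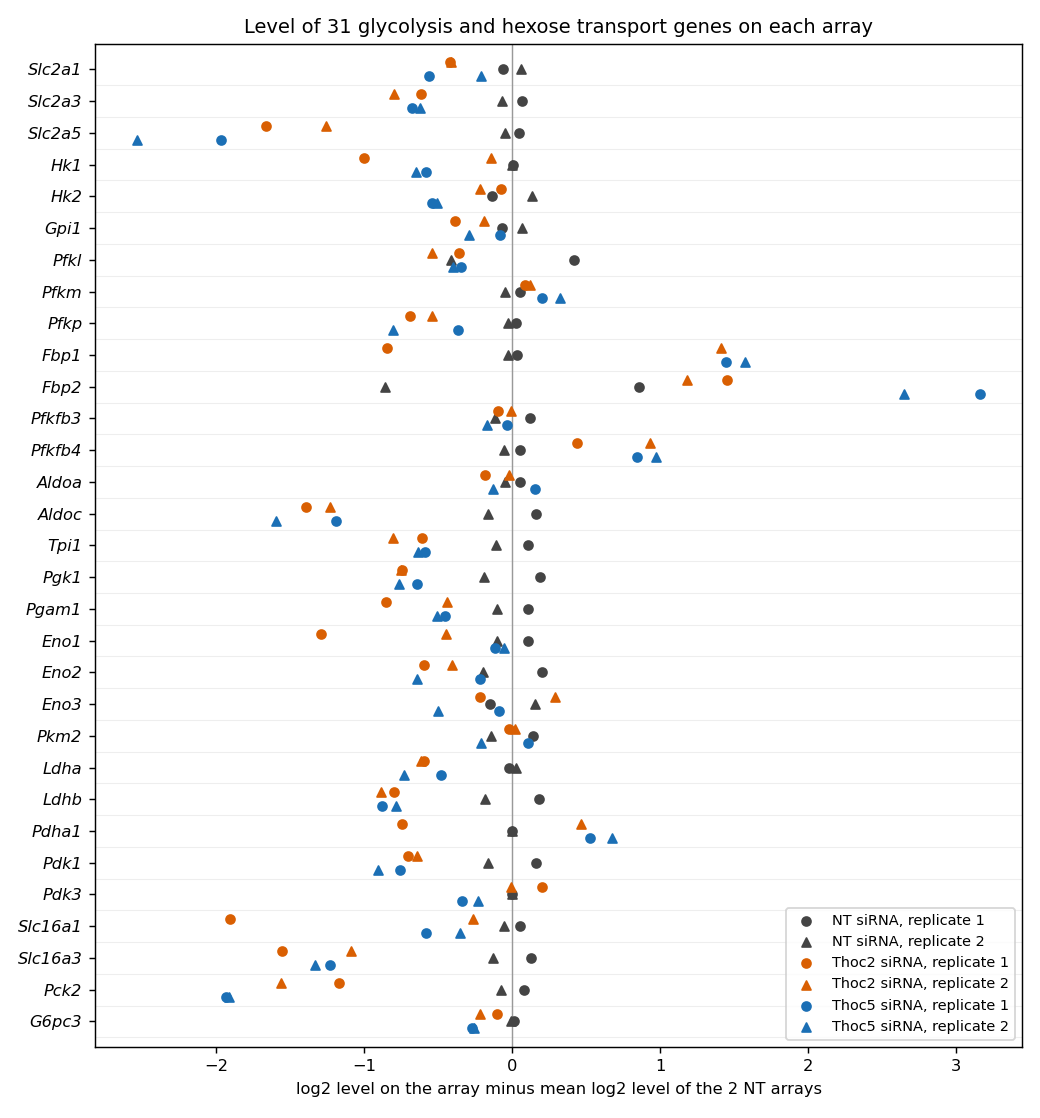
Level of each of the 31 genes on each array minus the mean level of the 2 NT arrays (horizontal axis, log2 units), with genes from uptake at the top to gluconeogenesis at the bottom. Grey, orange and blue are NT, Thoc2 and Thoc5 siRNA, and circles and triangles are replicates 1 and 2. In 18 genes the 4 coloured points all lie to the left of the grey ones; Fbp2, Pfkfb4 and Pfkm have all 4 to the right.

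The median lay below NT on each of the 4 knockdown arrays. The median of the 31 genes, after subtracting each gene's NT mean, was 0.05 and -0.05 on the NT arrays, -0.61 and -0.41 on the Thoc2 arrays and -0.37 and -0.51 on the Thoc5 arrays. Over all tested genes those medians ran from -0.14 to 0.10. Among the brighter genes, those with a mean level over 2, the median difference for the mean of both was -0.56 over 21 of the 31 and -0.05 over all 4481 such genes. Slides, told from the array header, held 1 or 2 of these arrays. Thoc2 replicate 1 and Thoc5 replicate 1 each lay on a slide with no NT array. Their differences from NT cannot be told apart from differences between slides. On the slide shared by NT replicate 1 and Thoc2 replicate 2, 25 of the 31 genes were lower in the knockdown. The median difference was -0.35, and 0.13 for all genes with a probe. On the slide shared by NT replicate 2 and Thoc5 replicate 2, 24 were lower, with medians of -0.40 and -0.03. The share of all genes lower within a slide was not counted.

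Promoter sequence was examined because so many of these genes lay lower together. RefSeq (GRCm38.p6) gave 44 promoters for 31 of the 32 genes, all but Slc2a3. The 250 bases before each start were searched on both strands for ACGTG or GCGTG, the core of the hypoxia response element, for CACGTG, the E-box read by Myc and Usf factors, which holds ACGTG on both strands, and for CCGCCC, the core of the GC box. The hypoxia core was present for 26 of 31 genes (83.9%), and for 47.1% of 17492 protein-coding genes. CACGTG was present for 6 of 31 (19.4%) and 7.61%, and CCGCCC for 20 of 31 (64.5%) and 45.8%. All of these strings hold the bases CG. The protein-coding genes were not matched to the 31 for base composition or expression. By group, the hypoxia core was present for 13 of the 17 genes with all 4 knockdown arrays below NT and a promoter entry, and for 12 of the other 13 measured genes; the Gapdh promoter, which holds it too, is in neither group. Promoters of 3 genes of the lower group that hold the core, and of Slc2a5, which had the lowest difference for the mean of both and holds none, show the range. Capitals mark ACGTG or GCGTG on either strand (CACGT or CACGC when read from the opposite strand), and each line is the strand of the gene, 5′ to 3′.
Ldha, chr7:46845554-46845803 (+): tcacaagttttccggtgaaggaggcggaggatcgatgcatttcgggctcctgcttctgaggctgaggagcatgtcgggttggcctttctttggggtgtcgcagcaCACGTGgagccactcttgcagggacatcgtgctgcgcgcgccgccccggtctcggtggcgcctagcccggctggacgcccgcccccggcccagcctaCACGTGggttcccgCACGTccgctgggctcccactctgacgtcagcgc
Pgk1, chrX:106186850-106187099 (+): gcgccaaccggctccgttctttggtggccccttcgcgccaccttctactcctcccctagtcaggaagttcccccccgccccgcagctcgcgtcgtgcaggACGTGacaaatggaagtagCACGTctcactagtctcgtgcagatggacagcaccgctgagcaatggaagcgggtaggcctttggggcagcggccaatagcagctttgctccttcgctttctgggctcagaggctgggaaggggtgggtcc
Slc16a3, chr11:120948817-120949066 (+): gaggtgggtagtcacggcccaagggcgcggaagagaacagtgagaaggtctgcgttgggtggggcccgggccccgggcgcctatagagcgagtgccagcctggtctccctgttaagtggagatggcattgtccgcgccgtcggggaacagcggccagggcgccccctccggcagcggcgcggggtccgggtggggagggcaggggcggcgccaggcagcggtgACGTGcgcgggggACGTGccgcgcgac
Slc2a5, chr4:150119094-150119343 (+): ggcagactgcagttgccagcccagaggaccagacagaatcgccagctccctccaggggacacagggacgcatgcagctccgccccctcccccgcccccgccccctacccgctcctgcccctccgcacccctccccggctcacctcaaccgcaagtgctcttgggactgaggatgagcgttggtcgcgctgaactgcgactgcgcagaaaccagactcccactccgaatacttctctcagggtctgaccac
Ldha has a pair of whole CACGTG palindromes and a further core, and Pgk1 and Slc16a3 have 2 cores each. A match is a string of letters and was not tested as a binding site.

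The path begins with the transporters, and all 3 measured here lay lower in both knockdowns. Slc2a1 (Glut1), the widespread basal glucose transporter, had levels of 6.23 and 6.35 with NT, 5.87 and 5.87 with Thoc2, and 5.72 and 6.08 with Thoc5 siRNA (replicates 1 and 2; probe at chr4:118513698-118513757 of build mm7, as all probe positions here). All 4 knockdown arrays were below both NT arrays, with differences of -0.42 ± 0.18 and -0.39 ± 0.18. Slc2a3 (Glut3), a glucose transporter of high affinity, had levels of 5.90 and 5.77 with NT, 5.22 and 5.04 with Thoc2, and 5.16 and 5.21 with Thoc5 siRNA (chr6:122764878-122764937). All 4 knockdown arrays lay below both NT arrays while the knockdowns overlapped each other, and the means were 61.3% and 63.6% of NT (differences -0.71 ± 0.15 and -0.65 ± 0.15, limma adjusted p 0.231 and 0.139).

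Slc2a5 (Glut5), the fructose transporter, stood furthest below NT for the mean of both knockdowns. Its levels were -0.35 and -0.44 with NT, -2.06 and -1.65 with Thoc2, and -2.37 and -2.93 with Thoc5 siRNA (chr4:149133208-149133267). Each Thoc5 array lay below each Thoc2 array, and each of those below NT. Expression was 36.3% of NT with Thoc2 siRNA (-1.46 ± 0.27, limma adjusted p 0.222) and 21% with Thoc5 siRNA (-2.25 ± 0.27, limma adjusted p 0.101). The difference between the Thoc5 and Thoc2 means was -0.79 ± 0.27 (unadjusted p 0.036, adjusted p 0.517 in limma). Within the shared slides the differences from NT were -1.31 and -2.49.

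Hexokinase, which phosphorylates glucose on entry, was less uniform. Hk2, the inducible form, had levels of 4.66 and 4.94 with NT, 4.72 and 4.58 with Thoc2, and 4.26 and 4.29 with Thoc5 siRNA (chr6:82750613-82750672). Only the Thoc5 arrays lay below both NT arrays, at -0.52 ± 0.17, and the Thoc2 difference was -0.15 ± 0.17. Hk1, the constitutive form, had levels of 2.93 and 2.93 with NT, 1.93 and 2.79 with Thoc2, and 2.34 and 2.27 with Thoc5 siRNA. Thoc2 replicate 1 set most of its Thoc2 difference of -0.57, which was -0.14 without that array. Among the 4 probes of Hk1 that were well above background on all 6 arrays, the Thoc2 difference ran from -0.57 to 0.34, so the brightest probe does not stand for all of them. Gpi1, which turns glucose 6-phosphate into fructose 6-phosphate, had levels of 6.67 and 6.81 with NT, 6.35 and 6.55 with Thoc2, and 6.66 and 6.45 with Thoc5 siRNA. Its differences, -0.29 ± 0.17 and -0.19 ± 0.17, were small, although no knockdown array reached NT.

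The 3 phosphofructokinase subunits, which make the committing enzyme, did not share a direction. Pfkp, the platelet form, was at 65.2% of NT with Thoc2 and 66.7% with Thoc5 siRNA, with all 4 arrays below NT (-0.62 ± 0.20 and -0.58 ± 0.20) and all 3 of its probes lower in both. Pfkm, the muscle form, had all 4 knockdown arrays above NT, by only 0.10 ± 0.14 and 0.26 ± 0.14, a sign that turned with another background correction (normexp: -0.07 and -0.03). Pfkl, the liver form, had levels of 4.05 and 3.22 with NT, 3.27 and 3.09 with Thoc2, and 3.29 and 3.24 with Thoc5 siRNA. NT replicate 1 alone was high, and without it the differences of -0.45 and -0.37 became -0.03 and 0.04.

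The enzymes around fructose bisphosphate include 2 of the 3 genes with all 4 knockdown arrays above NT, Pfkfb4 and Fbp2. Pfkfb4, which makes or removes fructose 2,6-bisphosphate, the activator of phosphofructokinase, was at 161% of NT with Thoc2 siRNA (0.69 ± 0.22) and 188% with Thoc5 siRNA (0.91 ± 0.22, limma adjusted p 0.143). Its relative Pfkfb3 was at -0.06 ± 0.16 and -0.10 ± 0.16, and the sign of the first turned when its dimmer probes were averaged in (0.35). Fbp2, a fructose bisphosphatase that runs the step in reverse, had levels of -2.27 and -3.98 with NT, -1.67 and -1.94 with Thoc2, and 0.04 and -0.47 with Thoc5 siRNA. Both Thoc5 arrays lay above both Thoc2 arrays, and those above NT, although the NT arrays themselves stood well apart. The difference was 2.91 ± 0.62 for Thoc5 siRNA (limma adjusted p 0.13), 1.32 ± 0.62 for Thoc2 siRNA, and 1.59 ± 0.62 between the knockdowns (limma unadjusted p 0.0552, adjusted 0.554). Its values turned on the NT arrays: without NT replicate 2 the differences from NT were 0.46 (Thoc2) and 2.05 (Thoc5), and without NT replicate 1 they were 2.17 and 3.77. Within the shared slides they were 0.33 and 3.51. Fbp1, the liver isoenzyme, was at -1.01 and -1.07 with NT, -1.88 and 0.37 with Thoc2, and 0.41 and 0.53 with Thoc5 siRNA. Thoc2 replicate 1 lay below NT and the other 3 knockdown arrays above, and without it the Thoc2 difference of 0.28 became 1.41. The probes of Fbp1 and Fbp2 map to the unplaced part of chromosome 13 in build mm7. The position of the Fbp2 probe spans an interval far longer than the probe, and the reason was not examined.

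**Figure D2:**
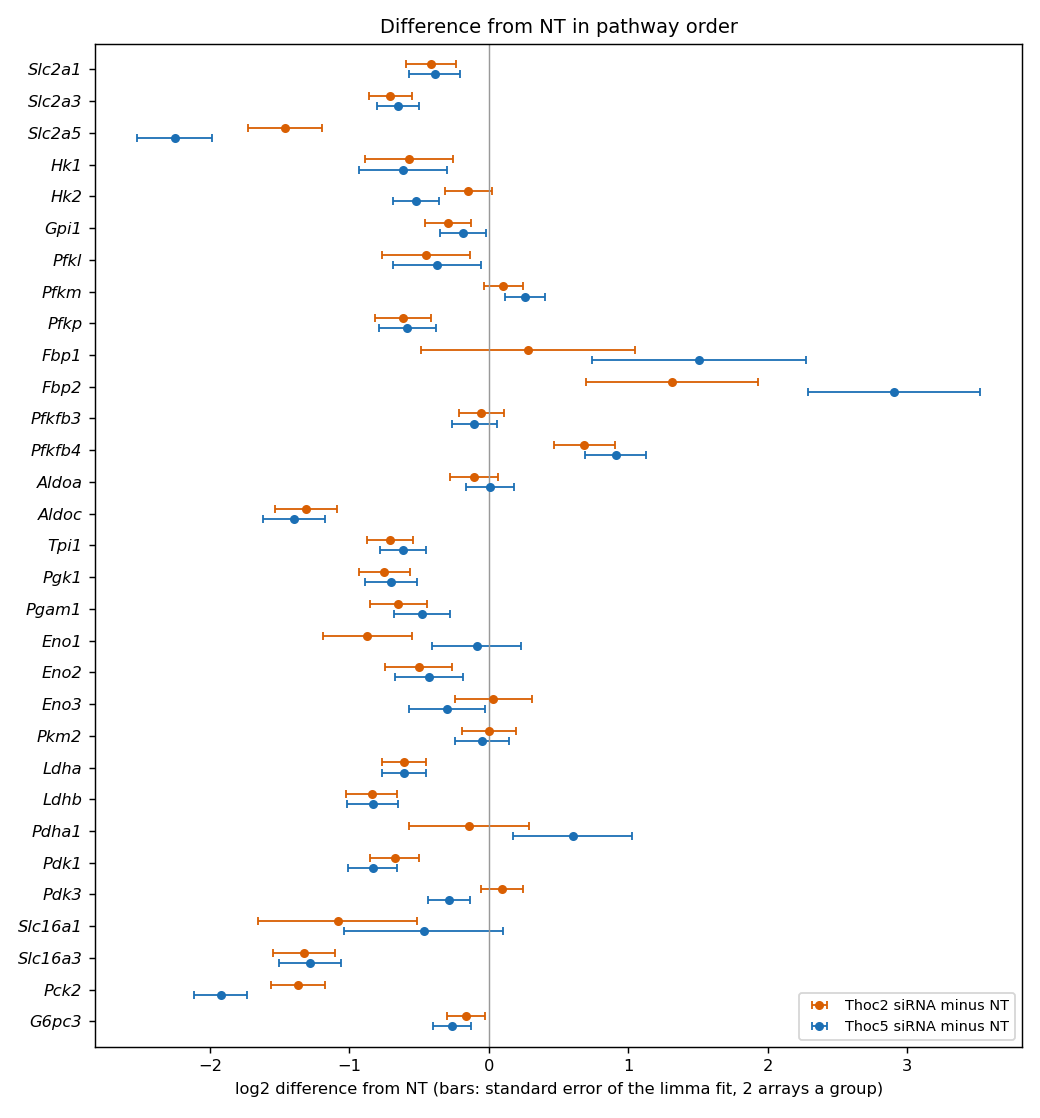
Difference from NT (horizontal axis, log2 units) for Thoc2 siRNA in orange and Thoc5 siRNA in blue, genes in the order of the path, with bars for the SE of the limma fit (2 arrays a group). Slc2a5, Aldoc, Slc16a3 and Pck2 lie furthest below 0 in both, and Fbp2 furthest above; the orange and blue points part most for Fbp1, Fbp2, Eno1, Pdha1 and Slc2a5.

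Aldolase cleaves the bisphosphate, and its isoenzymes differed. Aldoa, the ubiquitous form, had levels of 8.59 and 8.49 with NT, 8.35 and 8.51 with Thoc2, and 8.69 and 8.41 with Thoc5 siRNA, with all groups overlapping. Its differences were -0.10 ± 0.17 and 0.01 ± 0.17, the latter of unsettled sign (-0.06 after quantile normalization). Aldoc, the brain-type form, had levels of 1.63 and 1.31 with NT, 0.07 and 0.24 with Thoc2, and 0.27 and -0.13 with Thoc5 siRNA (chr11:78408037-78408096). No knockdown array came near NT, and the means were 40.3% (-1.31 ± 0.22, limma adjusted p 0.219) and 38% of NT (-1.40 ± 0.22, limma adjusted p 0.107). Its other, far dimmer probe gave -0.38 and -0.52.

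Along the lower part of the path, from triose phosphate to phosphoglycerate, Tpi1, Pgk1 and Pgam1 lay lower together. Tpi1, triose phosphate isomerase, had levels of 6.19 and 5.97 with NT, 5.47 and 5.28 with Thoc2, and 5.49 and 5.44 with Thoc5 siRNA (chr6:124837320-124837379). Pgk1, phosphoglycerate kinase, the first ATP-yielding step, had levels of 7.47 and 7.09 with NT, 6.53 and 6.53 with Thoc2, and 6.63 and 6.51 with Thoc5 siRNA (chrX:101530787-101530846). Pgam1, phosphoglycerate mutase, had levels of 7.65 and 7.44 with NT, 6.69 and 7.10 with Thoc2, and 7.09 and 7.04 with Thoc5 siRNA (chr19:41812247-41812306). In each of these genes all 4 knockdown arrays lay below both NT arrays. Tpi1 was at 61.3% and 65.4% of NT, Pgk1 at 59.5% and 61.4%, and Pgam1 at 63.8% and 71.7% (Thoc2 and Thoc5 siRNA). The SE of these log2 differences was 0.16 to 0.20, and limma adjusted p ran from 0.161 to 0.296 in the knockdowns taken singly. The second probe of Pgk1 gave -0.72 and -0.64, close to the -0.75 and -0.70 of the first.

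Gapdh, which links these steps, had no probe under its own name and enters no count of levels or differences, only the promoter counts. A probe named LOC380687, which lists a Gapdh accession, lies on chromosome 6 over an interval of 170 bases for 60 probe bases, so it is joined across a gap of 110 bases, while a probe named LOC14433, the gene number of Gapdh in RefSeq, lies unbroken in the same interval. The first reads across the gap and the second runs from the gap into the shared 14 bases, given in capitals, so the sequences are shown to tell the probes apart.
LOC380687, chr6:125188003-125188172: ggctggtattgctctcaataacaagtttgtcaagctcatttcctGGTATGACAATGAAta
LOC14433, chr6:125188005-125188064: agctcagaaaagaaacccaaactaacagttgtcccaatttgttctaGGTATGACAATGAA
The LOC380687 probe had levels of 7.24 and 7.60 with NT, 7.08 and 6.85 with Thoc2, and 7.07 and 7.33 with Thoc5 siRNA, which are differences of -0.45 and -0.22. Its Thoc2 arrays lay below both NT arrays and its Thoc5 arrays overlapped them. The LOC14433 probe had levels between -2.44 and -2.09 on the 6 arrays, with differences of 0.03 and 0.15. Another probe with a Gapdh accession, named MGC68323 and placed on chromosome 1, gave -0.17 and 0.10. Gapdh has many processed copies in the genome, and their share in the signal of these probes was not tested, so none was counted as Gapdh.

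Enolase and pyruvate kinase close the path to pyruvate. Eno1, the ubiquitous enolase, had levels of 3.50 and 3.29 with NT, 2.11 and 2.95 with Thoc2, and 3.28 and 3.34 with Thoc5 siRNA. Only the Thoc2 arrays lay below NT, at -0.87 ± 0.32, or -0.45 without Thoc2 replicate 1, against -0.09 ± 0.32 with Thoc5 siRNA. Between the knockdowns the difference was 0.78 ± 0.32 (limma unadjusted p 0.0628, adjusted 0.561), and 0.36 without Thoc2 replicate 1. Eno2, the neuronal form, was lower on all 4 arrays (-0.50 ± 0.24 and -0.43 ± 0.24) and positive in both after normexp correction (0.47 and 0.29). Eno3, the muscle form, was at 0.03 ± 0.27 and -0.30 ± 0.27. Pkm2, the name used by the array for pyruvate kinase M, had levels of 6.26 and 5.98 with NT, 6.10 and 6.14 with Thoc2, and 6.23 and 5.91 with Thoc5 siRNA. These overlapped throughout, with differences of 0.00 ± 0.19 and -0.05 ± 0.19 whose signs changed between settings. A second probe of Pkm2 gave -0.38 and -0.34.

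Lactate dehydrogenase converts pyruvate to lactate, and both subunits lay lower to a like extent in the 2 knockdowns. Ldha, the muscle-type subunit whose promoter is printed above, had levels of 8.02 and 8.07 with NT, 7.45 and 7.43 with Thoc2, and 7.56 and 7.31 with Thoc5 siRNA (chr7:43031720-43031779). All 4 knockdown arrays lay below both NT arrays, the knockdowns overlapped each other, and the difference was -0.61 ± 0.16 in each knockdown, or 65.6% of NT. Ldhb, the heart-type subunit, had levels of 5.51 and 5.15 with NT, 4.53 and 4.44 with Thoc2, and 4.45 and 4.54 with Thoc5 siRNA (chr6:142578009-142578068). It stood at 55.8% and 56.1% of NT (-0.84 ± 0.18 and -0.83 ± 0.18, limma adjusted p 0.231 and 0.131). The second probe of Ldha gave -0.85 and -0.68.

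The monocarboxylate transporters carry lactate across the plasma membrane. Slc16a3 (Mct4), the form known for lactate export, had levels of 5.17 and 4.91 with NT, 3.48 and 3.95 with Thoc2, and 3.81 and 3.71 with Thoc5 siRNA (chr11:121067754-121067813). All 4 knockdown arrays were about a log2 unit or more below NT, at 39.9% (-1.32 ± 0.22, limma adjusted p 0.219) and 41.2% of NT (-1.28 ± 0.22, limma adjusted p 0.108). Slc16a1 (Mct1), the more widespread form, had levels of 4.04 and 3.93 with NT, 2.08 and 3.72 with Thoc2, and 3.40 and 3.63 with Thoc5 siRNA. Thoc2 replicate 1 was far below the rest, and without it the Thoc2 difference of -1.08 ± 0.57 became -0.26. A second probe of Slc16a1 read 2.86 and 2.94 on the Thoc2 arrays and 3.48 and 3.31 on the NT arrays, so replicate 1 stood apart on the brightest probe only. The dimmest probe gave 0.20 and 0.56.

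Entry of pyruvate into mitochondrial oxidation is set by pyruvate dehydrogenase and by the kinases that switch it off. Pdk1, a kinase known as a Hif1a target, had all 4 knockdown arrays below NT, at 62.7% and 56.1% (-0.67 ± 0.18 and -0.83 ± 0.18, limma adjusted p 0.254 and 0.13), and its second probe gave -0.31 and -0.27. Pdk3 had levels of 0.61 and 0.61 with NT, 0.81 and 0.60 with Thoc2, and 0.27 and 0.38 with Thoc5 siRNA. Its Thoc5 arrays lay below all others, with a difference from the Thoc2 mean of -0.38 ± 0.15 (limma unadjusted p 0.0603, adjusted 0.555). A second Pdk3 probe lay below NT in both knockdowns, at -0.295 with Thoc2 and -0.568 with Thoc5 siRNA. On that probe Thoc2 replicate 2 (0.316) and Thoc5 replicate 2 (0.315) nearly coincided. Pdha1, the catalytic subunit of the dehydrogenase, was at -0.14 ± 0.43 with Thoc2 and 0.60 ± 0.43 with Thoc5 siRNA. Thoc2 replicate 1 alone was below NT, the Thoc2 difference without it was 0.46, and a second Pdha1 probe gave -0.03 and -0.36.

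The last genes belong to gluconeogenesis. Pck2, the mitochondrial phosphoenolpyruvate carboxykinase, had the smallest p of the 31 genes in both comparisons with NT. Its levels were 2.45 and 2.29 with NT, 1.20 and 0.81 with Thoc2, and 0.44 and 0.46 with Thoc5 siRNA (chr14:50415500-50415559). The groups formed 3 separate steps, NT above Thoc2 above Thoc5. The means were 38.7% of NT with Thoc2 siRNA (-1.37 ± 0.19, limma adjusted p 0.209) and 26.4% with Thoc5 siRNA (-1.92 ± 0.19, limma adjusted p 0.101). From the Thoc2 to the Thoc5 mean the difference was -0.56 ± 0.19 (limma unadjusted p 0.0391, adjusted 0.525). Within the shared slides Pck2 differed from NT by -1.64 and -1.84. G6pc3, the ubiquitous glucose-6-phosphatase, had all 4 arrays below NT by little (-0.16 ± 0.14 and -0.26 ± 0.14).

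**Figure D3:**
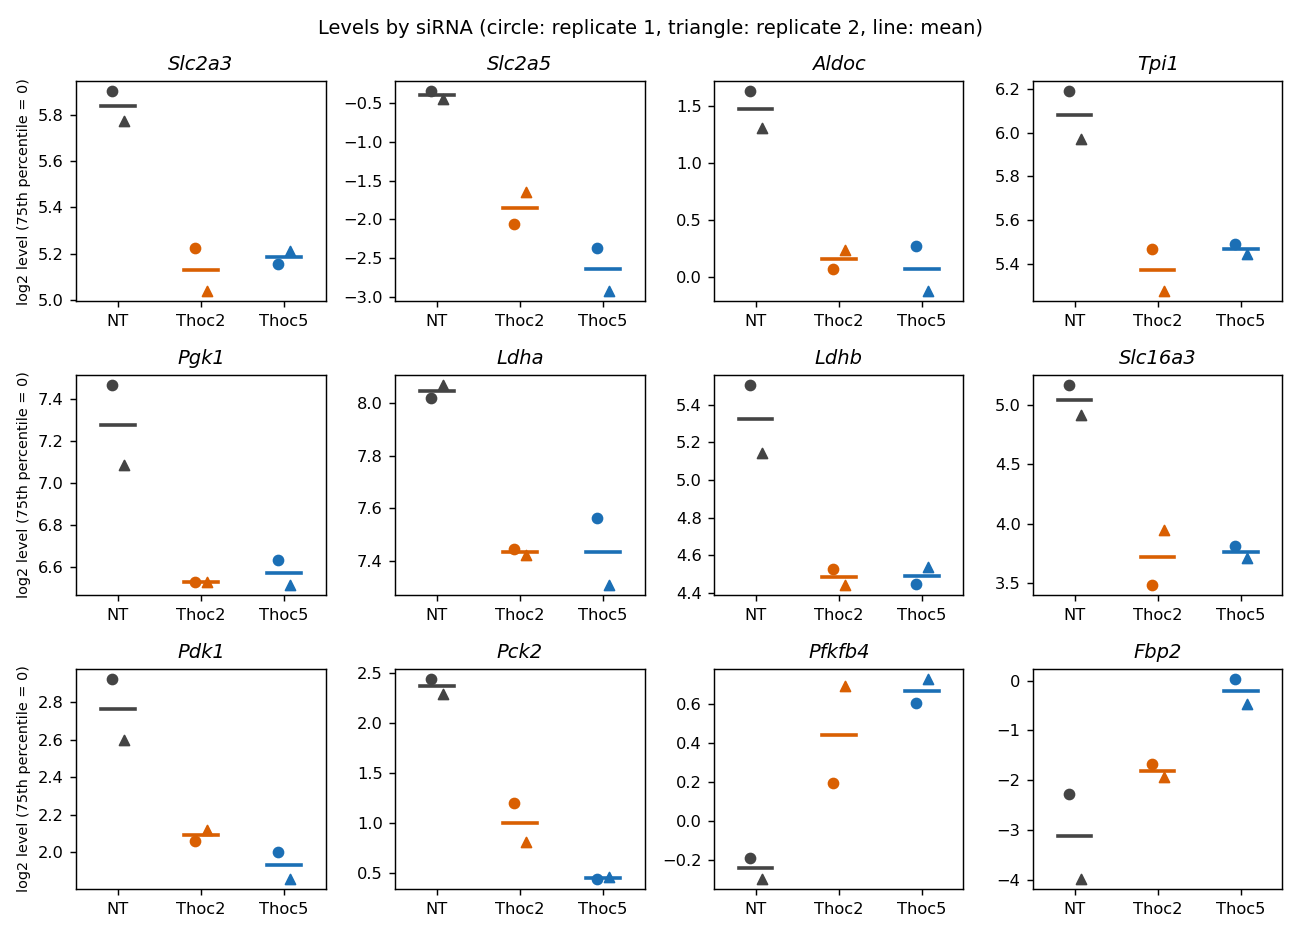
Log2 level (vertical axis, 0 is the array's 75th percentile; each panel has its own scale) of 12 of the genes with NT, Thoc2 and Thoc5 siRNA. Circles and triangles are replicates 1 and 2 and lines are group means. In all 12 panels the NT points stand apart from the knockdown points, above them in 10 genes and below them in Pfkfb4 and Fbp2; Slc2a5, Pdk1, Pck2 and Fbp2 also separate Thoc5 from Thoc2.

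Set knockdown by knockdown, Thoc2 siRNA placed 13 of 31 genes lower and 1 higher at an unadjusted p under 0.05 in limma, where 6.47% and 8.03% of all genes were. The median of the 31 genes was -0.50 and that of all tested genes 0.06, and 24 of the 31 and 44.3% of all genes had a difference below 0. In 19 genes both Thoc2 arrays lay below both NT arrays, as in 21% of all genes, and in 3 both lay above, as in 26.5%. With Thoc5 siRNA 12 genes were lower and 2 higher, where 12.1% and 7.41% of all genes were, and the medians were -0.43 and -0.09. Differences lay below 0 for 25 of the 31 and for 56.8% of all. Both Thoc5 arrays lay below both NT arrays for 20 of the 31 (31.1% of all genes) and above them for 5 (21.7%). The trended, robust fit called 7 of the 31 lower, where it called 2.09% of all genes lower, and 1, Fbp2, higher, where it called 1.32%. In the fit with every array above background 4 were called lower, against 1.87% of all. These comparisons share the NT arrays, so their likeness is not independent. With normexp correction the count of lower genes fell from 13 to 8 for Thoc2 siRNA and from 12 to 8 for Thoc5 siRNA. Over all genes, those at an unadjusted p under 0.05 in limma in either direction fell from 2804 to 837 and from 3764 to 987. Without Thoc2 replicate 1 the Thoc2 median was -0.41 for the 31 genes and 0.17 for all genes with a probe. Without Thoc5 replicate 2 the Thoc5 medians were -0.37 and 0.03.

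Between the knockdowns the 31 genes differed little in the median. At an unadjusted p under 0.05 limma found 2 of 31 lower with Thoc5 than with Thoc2 siRNA, Slc2a5 and Pck2, where 6.94% of all genes were, and 0 higher, where 2.19% were. That count of 2 fell to 0 with the replicate number as a block, with normexp correction, with only the groups compared, and when either NT array or the second Thoc5 array was left out. It was 1 without each of the other 3 arrays in turn, and 4 in the trended, robust fit. All genes at that threshold in either direction went from 1766 to 1523 with the block, 45 with normexp and 1940 with only the groups compared. In the trended, robust fit they were 1883. The median difference was 0.04 for the 31 genes and -0.13 for all tested genes, and 11 of the 31 and 65% of all lay below 0. Both Thoc5 arrays lay below both Thoc2 arrays for 6 of the 31 (33% of all genes) and above them for 5 (13.4%). The smallest adjusted p among them was 0.517 in limma. The SE was 0.14 to 0.77 per gene, and differences well above it also went uncalled, such as Fbp2 at 1.59 ± 0.62.

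How the genes vary among themselves was described by the correlation of each with the mean of the 31 over the 6 arrays, which share their depth and scaling. It was 0.99 for Pgam1, 0.95 for Slc16a3, 0.92 for Eno2 and 0.91 for Pgk1 and Aldoc, and below 0 for Fbp1, Pdk3, Fbp2, Pfkm and Pfkfb4. Outside the lists examined, the genes most like that mean over the 6 arrays were Tmem213 (r = 0.9909), Nol3 (r = 0.9908) and Abhd8 (r = 0.9905). Of the 12 genes with several probes above background on all arrays, the probes had the same sign in both knockdowns in 6: Aldoc, Eno2, Ldha, Pdk1, Pfkp and Pgk1.

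The rest of the pathway, from a list of other transporters, isoenzymes and regulators, lay nearer to NT in the median, a contrast that was not tested. Of 41 such genes 36 were tested and 0 called by limma; 6 were lower and 2 higher at an unadjusted p under 0.05 for the mean of both knockdowns, where 10.4% and 8.81% of all genes were, with a median difference of -0.04 over the tested genes. Slc2a8, an intracellular hexose transporter, had levels of 1.27 and 1.22 with NT, 0.46 and 0.48 with Thoc2, and 0.21 and 0.15 with Thoc5 siRNA (mean of both -0.92 ± 0.12). All 4 knockdown arrays were below NT. Ldhc, the testis lactate dehydrogenase, differed by -1.25 ± 0.21 and Pfkfb2, another maker of fructose 2,6-bisphosphate, by 0.58 ± 0.15, and both groups of arrays stood apart from NT. The others at that threshold were Adpgk, Galk1, Bpgm and Pgm1, lower, and Pdk4, higher. In the pentose phosphate branch, 6 of 8 genes were tested, the median difference was -0.21, and Tkt (-0.42 ± 0.13) and Pgls (-0.36 ± 0.13) were lower at the unadjusted threshold, where Rpe was at 0.35 ± 0.15.

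Genes of the Hif1a pathway and its known targets outside glycolysis were next examined. All 20 were tested, 0 were called by limma, and for the mean of both knockdowns 7 were lower and 2 higher at an unadjusted p under 0.05, where 10.4% and 8.81% of all genes were, with a median difference of -0.35. Egln3, a prolyl hydroxylase that is itself a target, had levels of 0.47 and 0.03 with NT, -1.25 and -1.22 with Thoc2, and -1.65 and -1.94 with Thoc5 siRNA. Bnip3, a mitophagy receptor, had levels of 3.96 and 3.57 with NT, 2.14 and 2.10 with Thoc2, and 2.31 and 2.08 with Thoc5 siRNA. Both stood well below NT on every knockdown array, with mean differences of -1.76 ± 0.19 and -1.60 ± 0.17 (limma adjusted p 0.105 each). Mxi1, a Myc antagonist, was at -0.80 ± 0.16, and Egln1, Ankrd37, Vegfa and Bhlhe40 made up the 7. The other way went Epas1, which encodes the Hif2a subunit (1.04 ± 0.24), and Car9, a carbonic anhydrase (0.87 ± 0.23). Hif1a itself was at 0.26 ± 0.13.

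**Figure D4:**
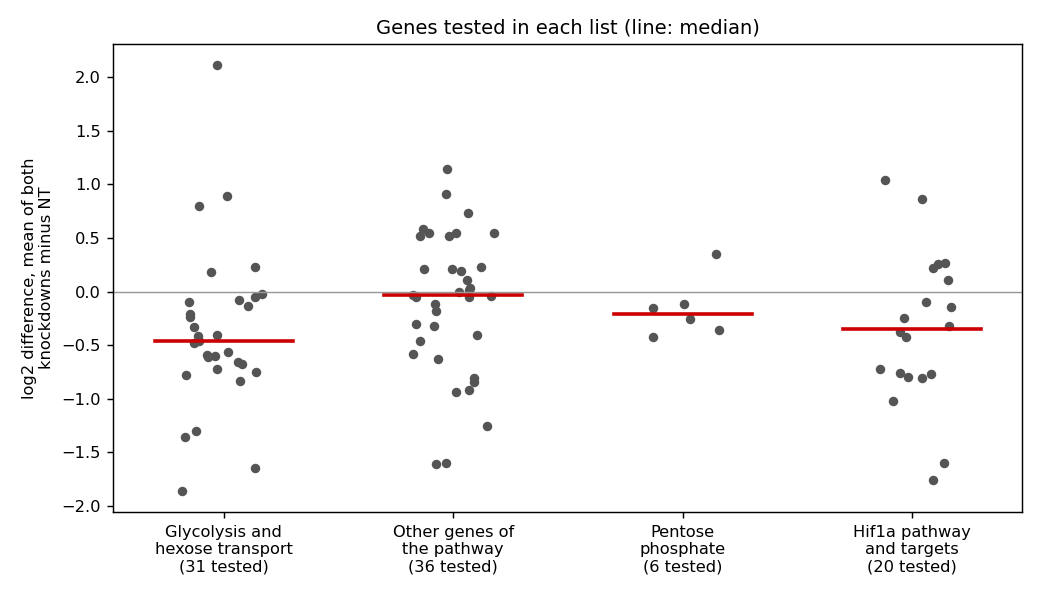
Log2 difference between the mean of both knockdowns and NT (vertical axis) for each tested gene of 4 lists, with a line at the median. The 31 glycolysis and hexose transport genes have a median of -0.47, the 36 other genes of the pathway -0.04, the 6 pentose phosphate genes -0.21 and the 20 Hif1a pathway genes -0.35.

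Markers of other cells were examined beside these differences. The summed level of 14 fibroblast and feeder markers, off the log scale and relative to the 75th percentile, was 36.1 to 39.9 with NT, 41.9 to 44.5 with Thoc2 and 47.7 to 52.8 with Thoc5 siRNA. Of the 14, 7 were below NT for the mean of both, with a median of -0.02. At an unadjusted p under 0.05 in limma Vim was higher (0.55 ± 0.12) and Col1a1 (-1.17 ± 0.30) and Thy1 (-1.79 ± 0.34) were lower. Over all genes 8.81% were higher and 10.4% lower at that threshold. Dcn was at 0.38, Postn at 0.34 and Col1a2 at -0.17, and Col3a1 was well above background on 2 of 6 arrays. The 8 endoderm markers summed to 1.87 to 9.89 with NT, 3.97 to 4.17 with Thoc2 and 3.91 to 12.3 with Thoc5 siRNA. The NT arrays themselves lay far apart. Of these 8, 0 were below NT for the mean of both, with a median of 0.27. At an unadjusted p under 0.05 limma placed 0 of the 7 tested lower and 0 higher, where 10.4% and 8.81% of all genes were. The 8 muscle and neuron markers summed to 5.82 to 6.15, 5.59 to 6.1 and 5.2 to 5.5. Of them 6 were below NT for the mean of both, with a median of -0.14. Of the 10 stem cell markers 9 were below NT for the mean of both, with a median of -0.27, against -0.47 for the 31 genes. At an unadjusted p under 0.05 in limma 2 of the 10 were lower and 0 higher, where 10.4% and 8.81% of all genes were. With Thoc5 siRNA alone 3 were lower and 0 higher, where 12.1% and 7.41% of all genes were. With Thoc2 siRNA 0 were lower and 0 higher, where 6.47% and 8.03% of all genes were. The part of cell composition in the differences above was not tested, and fewer cells of a type cannot be told apart from less mRNA per cell in bulk RNA.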

How the data were processed

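Total RNA of J1 cells was labelled with Cy3 and hybridised to 6 Agilent arrays. The authors deposited scanner files with the processed signal intensity per spot, background-subtracted per the file headers, by Feature Extraction (9.5.3.1 in those headers, 11.0 per the submitters' processing notes). The log2 values of their deposited series table have a median of 5.82 on each array and correlate with the processed signal at a Spearman rho of 1; how it was scaled is not given in the sources used here. Precision is limited by the number of arrays.

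Levels were log2 processed signal minus each array's 75th percentile. Control and outlier spots were left out and spots of a probe averaged. The brightest probe stood for a gene, tested if well above background (at least 0.5 of its spots) on every array of at least 1 group, which left 19336 genes, 340 of them with an array missing. Of 41174 probes, 22951 were named by their accession, 124 by another accession, 6582 by current symbol and 3077 by synonym, with RefSeq names (GRCm38.p6), and 8440 kept the files' name. Probe positions are those of build mm7 in the files; no annotation of that build was used, so exons are not given.

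limma 3.58.1 in R 4.3.3 (data.table package, version 1.17.8) was fitted to all 6 arrays, with 3 residual and 1.49 prior degrees of freedom, with two-sided tests, Benjamini-Hochberg adjustment over every tested gene and a threshold of 0.05. An exact permutation of 2 arrays against 2 cannot go below 0.333. On simulated data for the mean of both knockdowns (20 draws, 18996 genes) the fit called 0.8% of genes shifted by 1 log2 unit. It called 40.6% of genes shifted by 2 and 0.0106% of genes left alone. Only a small part of the genes was shifted in each draw, so these shares need not hold where more genes differ. The genes and lists were chosen with earlier results of these data known. All genes were named in pathway order, and values on every array were given for 12 central enzymes and transporters fixed by name and for the 5 genes with the smallest p in each comparison; genes of other lists were named if called, otherwise the 3 with the smallest unadjusted p and, chosen after their values were seen, the others counted at that threshold. Replicate numbers recur across groups, but the deviations of same-numbered arrays correlated at -0.201, 0.141 and 0.219, so they were not taken as pairs. Alternatives were quantile and cyclic loess normalization, normexp correction (offset 50), the series table, other probe filters and averaging, a variance trend, slide and replicate blocks, fewer groups, and leaving out each array.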

Additional observations from a re-analysis of the deposited data

How the results depend on the processing

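The call of 0 genes and 0 members in each comparison held in every fit run except with an intensity trend and robust variances (Thoc2 siRNA 4 genes, 0 members; Thoc5 siRNA 660 genes, 8 members; mean of both 640 genes, 10 members) and with every array required above background (Thoc5 siRNA 512 genes, 4 members; mean of both 440 genes, 4 members). The second tests fewer genes and also estimates the shared spread from those genes alone. The cause of the calls was not tested for either fit. The design leaves 3 residual degrees of freedom.

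The members' median minus that of all genes with a probe was -0.668 for Thoc2 siRNA, -0.481 for Thoc5 siRNA, 0.187 between them and -0.588 for the mean of both, and kept its sign in every setting. It became -0.527, -0.363, 0.068 and -0.412 with quantile normalization and, from the authors' series values, -0.522, -0.372, 0.068 and -0.413. With cyclic loess it was -0.588, -0.338 and -0.448 against NT (Thoc2, Thoc5, mean of both). With normexp it was -1.587, -1.576 and -1.563, where the median of all genes moved from 0.165 to 0.895 for Thoc2 siRNA and from 0.053 to 0.773 for Thoc5 siRNA. Within shared slides it was -0.481 and -0.367. Leaving out 1 array gave -0.726 to -0.585 (Thoc2), -0.533 to -0.392 (Thoc5), 0.048 to 0.229 (between them, lowest without Thoc2 replicate 1) and -0.639 to -0.514 (mean of both).

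With the replicate number as a block the medians were -0.667, -0.481, 0.187 and -0.589, and 0 genes were called. Members lower at an unadjusted p under 0.05 in limma went from 13 to 10 (Thoc2), 12 to 10 (Thoc5), 12 to 11 (mean of both) and, between the knockdowns, 2 to 0. All genes at that threshold in either direction went, in the same order, from 2804 to 2790, 3764 to 3281, 3706 to 3429 and 1766 to 1523. The numbers were not shown to pair the arrays.

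Members whose Thoc2 difference changed sign were, with normexp, Pfkm (-0.066), Eno2 (0.468), Eno3 (-0.331), Pkm2 (-0.428) and Pdk3 (-0.062); with probes averaged, Hk1 (0.106), Pfkfb3 (0.351), Pkm2 (-0.188) and Pdk3 (-0.1); with slide as a random block, Pkm2 (-0.037); and within the slide, Pkm2 (-0.122), Pdha1 (0.464) and Pdk3 (-0.01). For Thoc5 siRNA these were Aldoa (quantile -0.058, normexp -0.216, series values -0.057, probes averaged -0.031, within the slide -0.08), Pkm2 (quantile 0.066, loess 0.036, series values 0.054), Pfkm (normexp -0.027), Eno2 (normexp 0.29), Gpi1 (probes averaged 0.028), Pfkl (within the slide 0.017) and Eno1 (within the slide 0.046). Leaving out 1 array turned the sign for Thoc2 siRNA in Fbp1 (-0.845 to 1.411), Pfkfb3 (-0.172 to 0.063), Eno3 (-0.217 to 0.286), Pkm2 (-0.141 to 0.141), Pdha1 (-0.748 to 0.464) and Pdk3 (-0.009 to 0.2), and for Thoc5 siRNA in Pfkl (-0.787 to 0.044), Pfkfb3 (-0.222 to 0.013), Aldoa (-0.131 to 0.152), Eno1 (-0.192 to 0.017) and Pkm2 (-0.209 to 0.107). The cause was not tested.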
